A study of Homo sapiens with 6 samples.

Results

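The genes described here encode the cell-surface and secreted proteins first known for steering axons: Eph receptors and ephrins, semaphorins with their plexin and neuropilin receptors, and the Robo, Slit, Slitrk, netrin, Unc5 and FLRT families. They were taken by gene symbol from a comparison of HCT116 cells, a human colorectal carcinoma line, in which 7681 genes were listed as changed. Of 78 protein-coding genes that the symbol rule finds in RefSeq, 32 were listed and 46 were in neither table. The 13 antisense RNAs and pseudogenes that carry such names were not listed.

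The study sequenced RNA from 6 untreated cultures grown for 48 hours, 3 of wild-type HCT116 cells and 3 labelled Rab27B KO, in which RAB27B was targeted by CRISPR/Cas9 in the same line. RAB27B is a small GTPase that docks secretory vesicles at the plasma membrane. Whether those samples came from 1 clone or a pool is not stated in these sources. The data are 2 tables of the authors' own comparison, each gene with its log2 fold change and q-value but without values per sample, so depth, replicate spread and standard errors are unknown. Both tables were limited to genes with a q-value below 0.05, and a gene in neither table may have been unexpressed, untested or unchanged. RAB27B itself was 36.7-fold higher under the Rab27B KO label per the authors' deposited table, with q listed as 0. Because this goes against the label, each direction below compares the samples with that label to the wild type, following the column headers.

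Eph receptors are receptor tyrosine kinases that bind ephrins on neighbouring cells, and both partners can signal into the cell that carries them. In the gut epithelium EphB receptors and B-type ephrins sort cells along the crypt axis. Secreted class 3 semaphorins bind neuropilins, which pair with plexins, whereas most membrane semaphorins bind plexins directly. Plexins act on small GTPases and so on the actin skeleton. Slits bind Robo receptors and netrins bind Unc5 receptors, and FLRT proteins join Unc5 receptors and latrophilins on facing cells.

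The listed share of these genes was 41.0%, beside 37.9% of all RefSeq protein-coding genes. Of the 32 listed genes 20 were higher and 12 lower. The higher share was 62.5% (95% Wilson interval over genes 45.3 to 77.1%), and 50.7% of all listed genes were higher. Their median log2 fold change was 0.34, beside 0.12 over all listed genes, and the median absolute change was 0.63 beside 0.41. Without the 6 class 3 semaphorins described below, 14 were higher and 12 lower, and the median was 0.20. An absolute log2 change of at least 1, the size of a 2-fold change, was reached by 9 of the 32, or 28.1%, beside 12.6% of all listed genes. These 9 were FLRT3, EPHA7 and PLXNB1, which were lower, and ROBO4, SEMA3A, SEMA3D, SEMA3B, PLXNA2 and SEMA3G, which were higher. A q-value below 0.01 was listed for 30 of the 32, beside 84.9% of all listed genes, and one below 0.001 for 24, beside 70.0%. The lower share over all listed genes was 49.3%. In these bulk samples, a change in the share of cells that express a gene and a change in RNA per cell cannot be told apart.

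**Figure D1:**
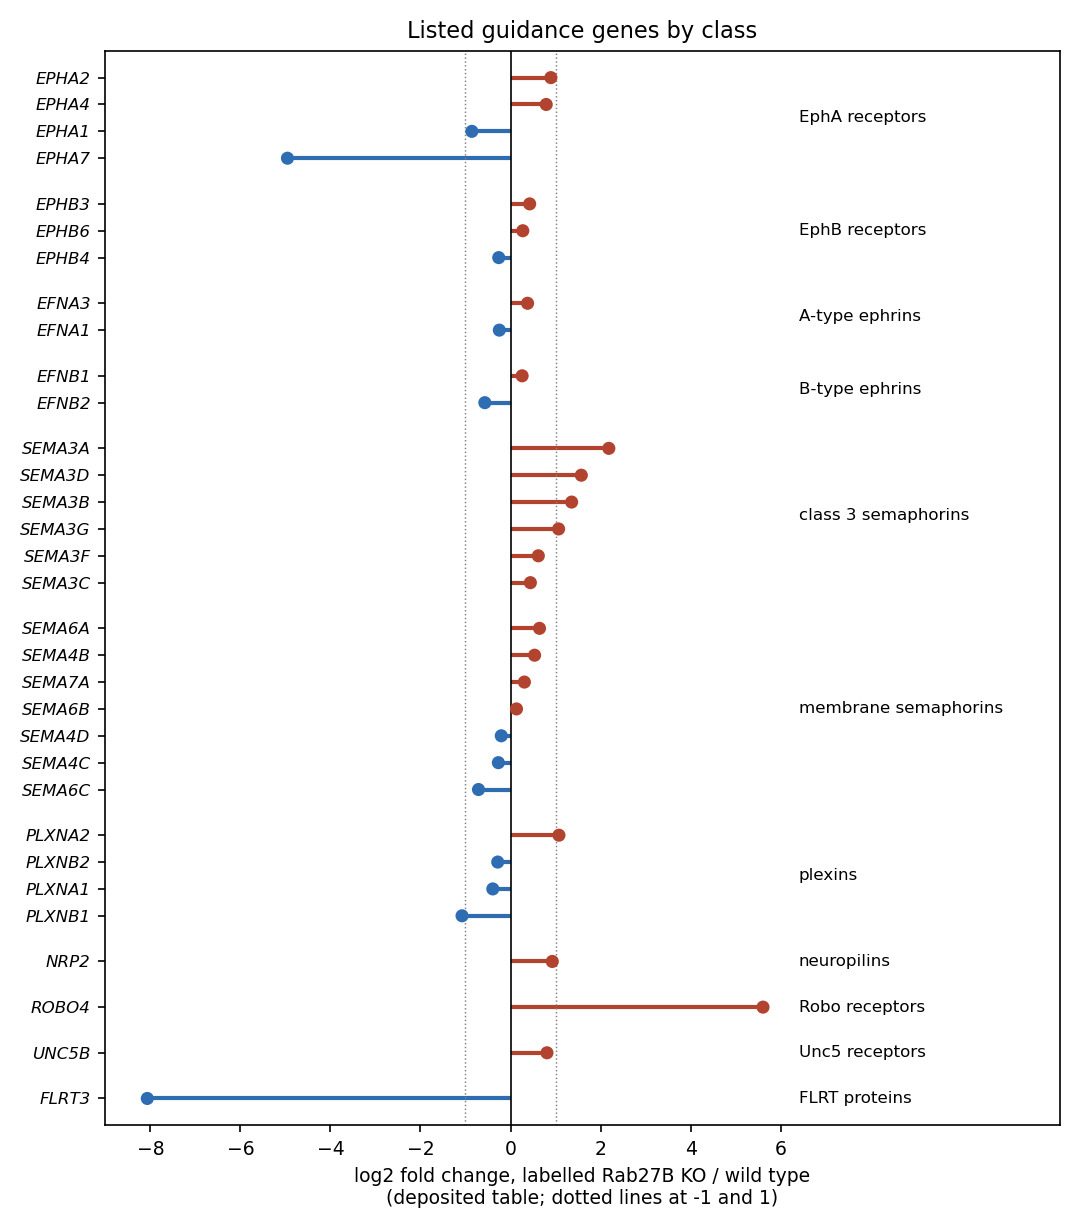
Log2 fold change of each of the 32 listed guidance genes (x axis, samples labelled Rab27B KO over wild type, from the authors' deposited table), 1 row per gene and grouped by class, with red for higher and blue for lower. All 6 listed class 3 semaphorins lie to the right of 0, while FLRT3 at -8.07, EPHA7 at -4.95 and ROBO4 at 5.61 lie far from the rest.

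The class 3 semaphorins, secreted ligands that mostly repel axons and endothelial cells, were listed in 1 direction. Of 7 genes 6 were listed, beside 37.9% of all RefSeq protein-coding genes. All 6 were higher, beside 50.7% of all listed genes. Their median log2 fold change was 1.21, beside 0.12 over all listed genes. The class was singled out with its values known. SEMA3A, the classic growth-cone collapsing factor and a ligand of neuropilin-1, had a log2 fold change of 2.18 per the authors' deposited table, a 4.54-fold rise. Its q-value was listed as 0, as for only 17 of the 7681 genes per the authors' deposited table. SEMA3D, a guidance cue of neural crest and endothelial cells, rose 2.97-fold (log2 1.57, q = 1.23e-10) per the authors' deposited table. SEMA3B, studied as a candidate tumour suppressor of chromosome 3, rose 2.56-fold (log2 1.36, q = 5.07e-50) per the authors' deposited table. SEMA3G, a ligand of neuropilin-2 made by endothelial cells, rose 2.10-fold (log2 1.07, q = 1.72e-14) per the authors' deposited table. The 4 genes above thus each more than doubled, and the other two rose less. SEMA3F, which binds neuropilin-2 and lies near SEMA3B, had a log2 fold change of 0.62 (q = 1.30e-18) per the authors' deposited table. SEMA3C, a guidance factor of the developing heart's outflow tract, had one of 0.44 (q = 7.61e-10) per the authors' deposited table. SEMA3E, the ligand of plexin-D1, was in neither table.

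Start regions of these genes are shown because the class moved in 1 direction. Each runs from 250 bases before to 50 bases after 1 start per gene in RefSeq (GRCh38.p14), read 5′ to 3′ on the gene's strand. For 20 of the 28 genes with such an entry this start is the outer end of the gene's RefSeq span, and for 8 it lies inside the span. In SEMA3B it lies 12.9 kb and in SEMA3D 63.2 kb inside, so the regions before their outermost starts are not shown. Capitals mark matches, on either strand, to GGGCGG (the GC box bound by Sp1-type factors), TATAAA (the TATA box), TGANTCA (the AP-1 core), CACCTG (the box bound by ZEB and Snail repressors), TGACGTCA (the cyclic AMP response element) and GCGTG (a core of the hypoxia response element). No entry was matched for SEMA3A, SEMA6A, SEMA6B and UNC5B, and 28 of the 32 listed genes were matched.
SEMA3B (chr3:50272869-50273168, plus strand): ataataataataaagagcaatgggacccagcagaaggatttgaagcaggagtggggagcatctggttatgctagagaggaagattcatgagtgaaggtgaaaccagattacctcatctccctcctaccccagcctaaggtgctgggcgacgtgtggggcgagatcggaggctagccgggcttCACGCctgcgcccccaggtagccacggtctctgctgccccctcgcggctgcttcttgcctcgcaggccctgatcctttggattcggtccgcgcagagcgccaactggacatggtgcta
SEMA3C (chr7:80922340-80922639, minus strand): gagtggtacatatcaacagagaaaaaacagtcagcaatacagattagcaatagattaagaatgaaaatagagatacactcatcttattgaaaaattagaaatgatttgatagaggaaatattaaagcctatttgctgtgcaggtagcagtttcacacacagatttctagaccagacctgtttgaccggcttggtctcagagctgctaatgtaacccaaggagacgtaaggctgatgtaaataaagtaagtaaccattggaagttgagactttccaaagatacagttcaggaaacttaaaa
SEMA3D (chr7:85187007-85187306, minus strand): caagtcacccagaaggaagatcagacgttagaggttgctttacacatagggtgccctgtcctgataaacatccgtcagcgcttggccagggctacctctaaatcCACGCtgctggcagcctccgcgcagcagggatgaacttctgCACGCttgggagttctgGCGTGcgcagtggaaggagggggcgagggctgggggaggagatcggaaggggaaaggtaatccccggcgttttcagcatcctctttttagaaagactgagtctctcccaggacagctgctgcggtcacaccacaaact
SEMA3F (chr3:50154808-50155107, plus strand): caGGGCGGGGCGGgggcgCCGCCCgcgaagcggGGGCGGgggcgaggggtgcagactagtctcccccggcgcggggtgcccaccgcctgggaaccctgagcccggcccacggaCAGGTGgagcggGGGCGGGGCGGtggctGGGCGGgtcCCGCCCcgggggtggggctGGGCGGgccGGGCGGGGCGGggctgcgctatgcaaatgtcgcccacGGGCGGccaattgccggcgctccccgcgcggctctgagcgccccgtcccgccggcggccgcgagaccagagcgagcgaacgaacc
SEMA3G (chr3:52445054-52445353, minus strand): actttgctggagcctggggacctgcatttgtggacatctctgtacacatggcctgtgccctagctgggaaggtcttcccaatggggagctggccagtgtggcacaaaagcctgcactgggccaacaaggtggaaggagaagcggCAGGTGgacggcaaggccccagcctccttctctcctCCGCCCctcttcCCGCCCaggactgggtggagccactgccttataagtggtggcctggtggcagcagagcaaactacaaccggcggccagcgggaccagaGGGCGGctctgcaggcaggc
The 5 sequences shared no motif of this set. SEMA3F held 12 GC boxes, some of them overlapping, and SEMA3G held 3, while SEMA3B, SEMA3C and SEMA3D held none. A CACCTG match stood in SEMA3F and in SEMA3G, and GCGTG in SEMA3B (1 match) and SEMA3D (3 matches). SEMA3C had no match to any of them. The GC content of these windows ran from 36.0% in SEMA3C to 81.3% in SEMA3F. A match is a description of letters and not evidence of binding.

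Over the 28 matched promoters, 24 held a GC box, 13 of 16 from higher and 11 of 12 from lower genes. The GC box stood in 45.0% of all 35116 promoters of this length and in 72.3% of the 6209 promoters of listed genes. GCGTG was found in 10 of the 28, beside 36.5% of all promoters and 50.6% of those of listed genes. CACCTG was found in 5, in EFNB2, EPHA1 and PLXNB1 among lower genes and in SEMA3F and SEMA3G among higher ones, beside 20.6% of all promoters and 18.6% of those of listed genes. TATAAA was found only in EFNB2 of the 28, beside 11.5% of all promoters and 5.62% of those of listed genes. TGANTCA was in 0 of the 28, beside 7.71% of all promoters and 4.48% of those of listed genes. TGACGTCA, found in 1.85% of all promoters and 3.21% of those of listed genes, stood in EPHA2, which was higher, and in SEMA4C, which was lower. Those 2 sequences are shown to let the element be compared.
EPHA2 (chr1:16156020-16156319, minus strand): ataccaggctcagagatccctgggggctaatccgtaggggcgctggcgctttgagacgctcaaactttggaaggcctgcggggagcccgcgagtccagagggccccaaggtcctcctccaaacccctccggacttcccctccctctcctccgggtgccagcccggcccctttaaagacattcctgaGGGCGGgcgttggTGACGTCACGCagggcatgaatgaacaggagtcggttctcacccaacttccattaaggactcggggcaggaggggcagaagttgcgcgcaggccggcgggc
SEMA4C (chr2:96870031-96870330, minus strand): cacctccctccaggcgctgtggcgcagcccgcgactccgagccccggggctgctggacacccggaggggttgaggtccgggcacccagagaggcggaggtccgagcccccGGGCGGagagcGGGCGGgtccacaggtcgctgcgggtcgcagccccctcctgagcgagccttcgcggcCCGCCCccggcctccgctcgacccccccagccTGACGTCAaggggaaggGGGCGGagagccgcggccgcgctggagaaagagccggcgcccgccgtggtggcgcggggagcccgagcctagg
In EPHA2 the element overlaps a GCGTG match on the other strand and begins 51 bases before the start used, which is the outer end of the gene's span. In SEMA4C it begins 40 bases before the start used, which lies 750 bases inside the span.

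Semaphorins of the membrane-bound classes went both ways. Of 13 genes 7 were listed, beside 37.9% of all RefSeq protein-coding genes. Of these 7, 4 were higher and 3 lower, near the 50.7% higher among all listed genes. None reached an absolute log2 change of 1. SEMA6A, a transmembrane ligand of A-type plexins, had a log2 fold change of 0.64 (q = 2.20e-08) and SEMA4B one of 0.53 (q = 1.55e-14) per the authors' deposited table. SEMA7A, which is held by a lipid anchor and binds integrins and plexin-C1, had one of 0.31, and SEMA6B one of 0.13, the smallest among the 32 per the authors' deposited table. The lower members were SEMA6C at -0.71 (q = 1.67e-10), SEMA4C at -0.27 and SEMA4D at -0.20 on the log2 scale used by the authors' deposited table. SEMA4A, SEMA4F, SEMA4G, SEMA5A, SEMA5B and SEMA6D were in neither table.

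Of the 9 plexins, the signalling receptors for semaphorins, 4 were listed, 3 lower and 1 higher, beside 49.3% lower among all listed genes. The other 5, PLXNA3, PLXNA4, PLXNB3, PLXNC1 and PLXND1, were in neither table. The listed share over all RefSeq protein-coding genes was 37.9%. PLXNB1, the receptor of SEMA4D, was 2.11-fold lower (log2 -1.08, q = 1.30e-14) per the authors' deposited table. PLXNA1, a partner of neuropilin-1, stood at -0.39 (q = 6.62e-16) and PLXNB2, the receptor of SEMA4C, at -0.28 (q = 2.89e-10) in log2 per the authors' deposited table. PLXNA2, which binds SEMA6A and also serves neuropilins, was the exception at 2.11-fold higher (log2 1.08, q = 2.36e-04) per the authors' deposited table. Of the neuropilins, NRP2 was 1.90-fold higher (log2 0.93, q = 0.00611) per the authors' deposited table, and NRP1 was in neither table. The ligands and receptors of known pairs can thus be read side by side. SEMA3F, SEMA3B, SEMA3C and SEMA3G were higher together with NRP2, a receptor they share. SEMA4D and PLXNB1 were both lower, as were SEMA4C and PLXNB2. For SEMA3A the plexin partners went apart, PLXNA2 higher and PLXNA1 lower. EFNA1 was lower and its receptor EPHA2 higher, and FLRT3 was lower and its partner UNC5B higher. The same direction was listed for SEMA6A with PLXNA2, EFNB2 with EPHB4, EFNB1 with EPHB3 and ROBO4 with UNC5B. These pairs are hand-picked examples, and other partners went apart. EFNB2 was lower (log2 -0.57), while EPHA4, a receptor for ephrins of both types, was higher (0.79). EFNB1 was higher (0.26) and the B-type receptor gene EPHB4 lower (-0.26). All pairs with NRP2 rest on the same NRP2 value. No difference between such pairs was tested.

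**Figure D2:**
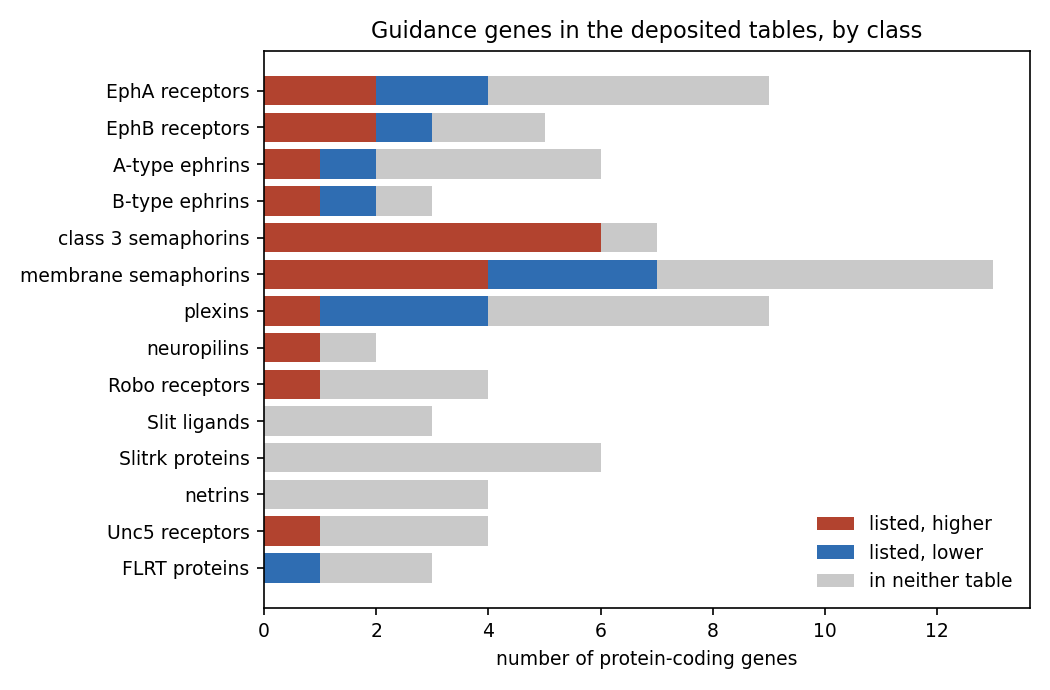
Number of protein-coding genes per class (x axis) that were listed as higher (red), listed as lower (blue) or in neither table (grey). Class 3 semaphorins have 6 higher and 0 lower genes, plexins 1 higher and 3 lower, and the Slit, Slitrk and netrin rows are grey throughout.

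Of 14 Eph receptor genes 7 were listed, beside 37.9% of all RefSeq protein-coding genes. They were split, 4 higher and 3 lower, near the 50.7% higher among all listed genes. EPHA2, which is widely raised in epithelial tumours and binds ephrin-A1, was 1.86-fold higher (log2 0.90, q = 3.61e-95) per the authors' deposited table. By q-value this was rank 130 of 7681 genes, the second of the guidance genes after SEMA3A. EPHA4, a receptor for ephrins of both types, rose 1.73-fold (log2 0.79, q = 5.02e-10) per the authors' deposited table. EPHA1, the founding member of the family, was 1.81-fold lower (log2 -0.86, q = 3.51e-25) per the authors' deposited table. EPHA1 shares exonic sequence with ZYX on the opposite strand, and ZYX stood at a log2 fold change of 0.45 per the authors' deposited table. Whether counting used strand is not stated in these sources, and ZYX was chosen after its value was seen. EPHA7 had the largest change of the receptors of this family, a log2 fold change of -4.95 or 31.0-fold lower, with q = 0.00263 per the authors' deposited table. EPHA7 was rank 32 of the 3783 lower genes by size but only rank 5807 of 7681 by q-value, and the reads behind it are unknown.

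Changes in EphB receptors and ephrins were small. EPHB3, a crypt receptor and Wnt target, had a log2 fold change of 0.43 (q = 0.00137) and EPHB6, which lacks kinase activity, one of 0.27 per the authors' deposited table. EPHB4, whose main ligand is ephrin-B2, stood at -0.26 (q = 1.73e-08) per the authors' deposited table. EFNB2, which encodes that ligand, was lower as well, at -0.57 (q = 6.28e-22) per the authors' deposited table. EFNB1 was higher at 0.26 (q = 4.54e-04) per the authors' deposited table. Among A-type ephrins, EFNA3 was higher at 0.38 (q = 8.02e-07) and EFNA1, a ligand of EPHA2, lower at -0.25 with q = 0.0431, the weakest q-value of the 32 per the authors' deposited table. EFNA3 shares exons with a read-through transcript of EFNA4 and EFNA3, so its reads may not be its own alone. EPHB2, EPHB1, EFNA4, EFNA5, EFNA2 and EFNB3 were in neither table, nor were EPHA3, EPHA5, EPHA6, EPHA8 and EPHA10.

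**Figure D3:**
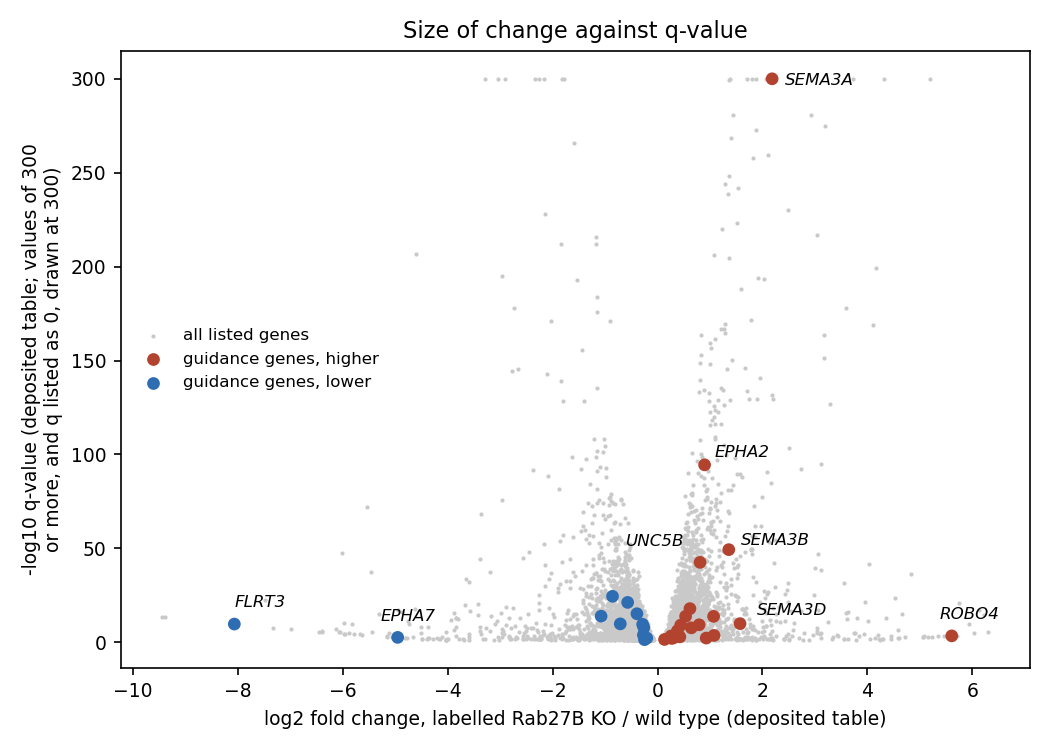
Log2 fold change (x axis) against -log10 of the q-value (y axis), both from the authors' deposited table, for all 7681 listed genes (grey) and the guidance genes (red higher, blue lower). SEMA3A sits at the top and EPHA2 next among guidance genes, whereas EPHA7 and ROBO4 have large changes with q-values of 0.00263 and 4.13e-04, and FLRT3 the largest with 2.17e-10.

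The remaining families had few listed genes but hold the extremes. FLRT3, a leucine-rich repeat adhesion protein that binds latrophilins and Unc5 receptors, was 268-fold lower per the authors' deposited table (log2 -8.07, q = 2.17e-10). By size it was rank 3 of the 3783 lower genes. It lies wholly inside MACROD2, on the opposite strand and without shared exonic sequence in GENCODE release 29. MACROD2 was also lower, at a log2 fold change of -2.18 (q = 9.04e-05) per the authors' deposited table, and was the one other listed gene within 500 kb. It was chosen after its value was seen, and its part in the FLRT3 result was not tested. FLRT1 and FLRT2 were in neither table. The latrophilin gene ADGRL2 stood at -5.31 (q = 9.76e-16), and TENM3, a teneurin that binds latrophilins, at -3.80 (q = 2.91e-13) in log2 per the authors' deposited table. Another latrophilin gene, ADGRL1, stood at -0.22 per the authors' deposited table, and ADGRL3 was in neither table. The choice of these latrophilin and teneurin genes followed a look at their values.

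UNC5B, a netrin receptor that also binds FLRT3 and ROBO4, was 1.75-fold higher (log2 0.81, q = 2.98e-43) per the authors' deposited table. UNC5A, UNC5C and UNC5D were in neither table. None of the 13 Slit, Slitrk and netrin genes was listed, beside 37.9% of all RefSeq protein-coding genes. The soluble Slit and netrin ligands of Robo and Unc5 receptors thus have no values here. ROBO4, the Robo receptor of endothelial cells, had the largest rise, 48.8-fold (log2 5.61), but a q-value of 4.13e-04 per the authors' deposited table. It was rank 8 of the 3898 higher genes by size and rank 5050 of 7681 by q-value. Its neighbour ROBO3, 2.22 kb away, was in neither table, and neither were ROBO1 or ROBO2. Of 12 endothelial markers 3 were listed, beside 37.9% of all RefSeq protein-coding genes. These 3 were higher, EGFL7 1.70-fold, SOX18 1.78-fold and ESAM 1.58-fold per the authors' deposited table, beside 50.7% of all listed genes. The other 9, PECAM1, CDH5, VWF, KDR, TEK, TIE1, CLDN5, EMCN and ERG, were in neither table. All samples were labelled as HCT116 cultures, and the relation of these markers to the ROBO4 value was not tested. The start regions of FLRT3 and ROBO4 are shown as those of the largest fall and the largest rise.
FLRT3 (chr20:14337563-14337862, minus strand): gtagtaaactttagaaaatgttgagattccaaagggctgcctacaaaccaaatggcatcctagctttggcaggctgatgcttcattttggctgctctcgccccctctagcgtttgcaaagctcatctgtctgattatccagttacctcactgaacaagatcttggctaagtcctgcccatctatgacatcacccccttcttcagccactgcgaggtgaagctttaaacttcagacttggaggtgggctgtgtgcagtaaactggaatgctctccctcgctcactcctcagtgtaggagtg
ROBO4 (chr11:124897816-124898115, minus strand): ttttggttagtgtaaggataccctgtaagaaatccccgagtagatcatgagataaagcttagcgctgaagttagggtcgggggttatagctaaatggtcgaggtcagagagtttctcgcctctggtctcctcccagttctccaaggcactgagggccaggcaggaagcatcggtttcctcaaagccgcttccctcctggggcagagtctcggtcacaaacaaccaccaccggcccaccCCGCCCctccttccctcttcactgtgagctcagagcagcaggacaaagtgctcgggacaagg
FLRT3 held no match to the 6 motifs and ROBO4 held 1 GC box, just before its start.

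Some of these genes went against the direction that was common on their chromosome, and others went with it. The examples below were chosen with their values known. On chromosome 7 only 33.0% of the 400 listed genes were higher, with a median log2 fold change of -0.31. The semaphorin genes of that chromosome, SEMA3A (83955777 to 84492725), SEMA3D (84995553 to 85250243) and SEMA3C (80742538 to 80922389), were higher, and no other gene within 500 kb of any of them was listed. SEMA3A and SEMA3D are 503 kb apart. Of the Eph receptor genes on the same chromosome, EPHA1 and EPHB4 were lower and EPHB6 was higher. On chromosome 15 only 19.8% of 257 listed genes were higher, yet SEMA4B and SEMA7A both were. EFNB2, on chromosome 13, where 13.5% of 148 listed genes were higher, was lower like most genes there. On chromosome 3, where 60.6% of 419 listed genes were higher, SEMA3F (50155058 to 50189075) and SEMA3B (50260226 to 50277546) lie 71.2 kb apart. Of 22 other genes listed within 500 kb of SEMA3B, 18 were higher. For SEMA3F this was 21 of 26, and for SEMA3G, also on chromosome 3 and higher, 16 of 22. The windows of SEMA3B and SEMA3F share most of their span, and each gene is counted among the other's neighbours. PLXNB1 (48403854 to 48430310) lies on the same chromosome and was lower, while 11 of 13 genes listed within 500 kb of it were higher. FLRT3 (20, 14322985 to 14337612) was lower on a chromosome where 64.3% of 207 listed genes were higher. Coordinates are those of RefSeq on GRCh38.p14.

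**Figure D4:**
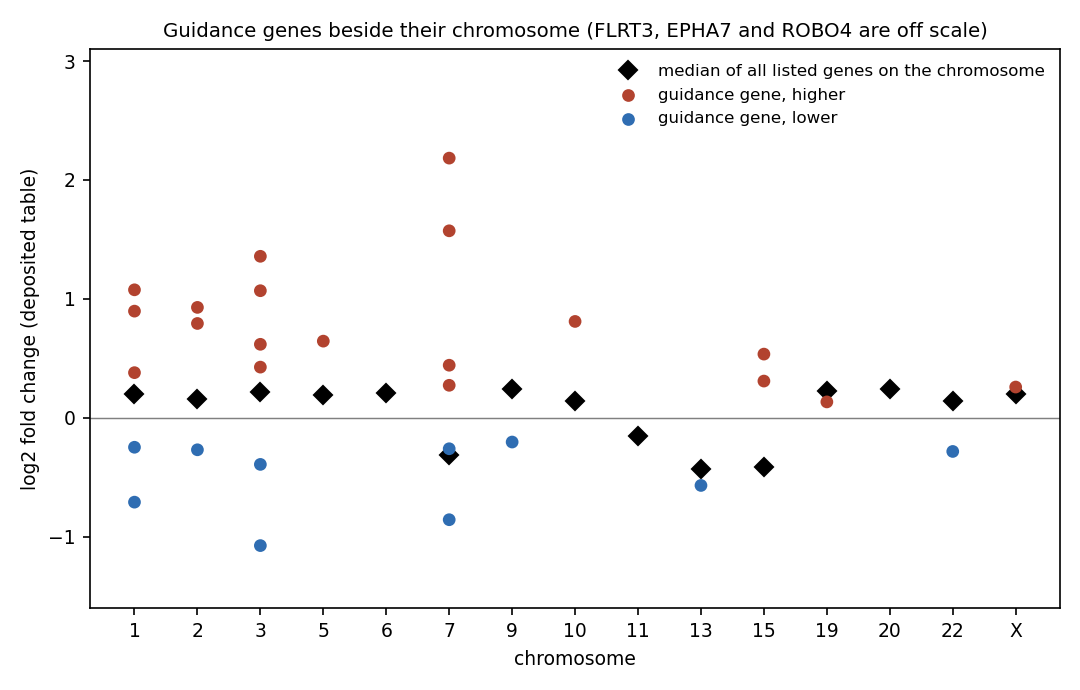
Log2 fold change per the authors' deposited table (y axis) of guidance genes (red higher, blue lower) by chromosome (x axis), with black diamonds for the median of all listed genes on that chromosome. On chromosome 7 the semaphorin genes SEMA3A and SEMA3D lie well above the chromosome median of -0.31, and FLRT3, EPHA7 and ROBO4 are outside the drawn range.

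Genes that act with these receptors were read from 3 companion lists. To be read beside each list, 37.9% of all RefSeq protein-coding genes were listed. Of all listed genes 50.7% were higher, and their median log2 fold change was 0.12. Of 46 co-receptors and further cues 19 were listed, 8 higher and 11 lower, with a median log2 fold change of -0.22. PTPRS, a receptor phosphatase that binds heparan sulfate, was 3.59-fold lower (q = 7.14e-213) per the authors' deposited table. The adhesion gene L1CAM, a co-receptor for SEMA3A, rose 2.65-fold and VEGFA, a growth factor that binds neuropilins, 2.07-fold per the authors' deposited table. ITGB1, an integrin chain that serves as receptor of SEMA7A, had a log2 value of 0.59 per the authors' deposited table. Of 64 cytoplasmic effectors 39 were listed, 19 higher and 20 lower, with a median of -0.13. DPYSL3, a collapsin response mediator, rose 1.70-fold and SRGAP1, a GTPase-activating protein downstream of Robo receptors, 2.00-fold per the authors' deposited table. SHB, an adaptor of tyrosine kinase receptors, rose 1.66-fold and ANKS1A, an Eph receptor adaptor, was 1.94-fold lower per the authors' deposited table.

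Of 32 sheddases and processing enzymes 16 were listed, 11 higher and 5 lower, with a median of 0.32. The metalloproteases ADAM9 and ADAM19 rose 1.59-fold and 1.32-fold, and NCSTN, a gamma-secretase subunit, 1.29-fold per the authors' deposited table. NDST1, an enzyme of heparan sulfate, on which Slit signalling depends, was 1.72-fold lower per the authors' deposited table.

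**Figure D5:**
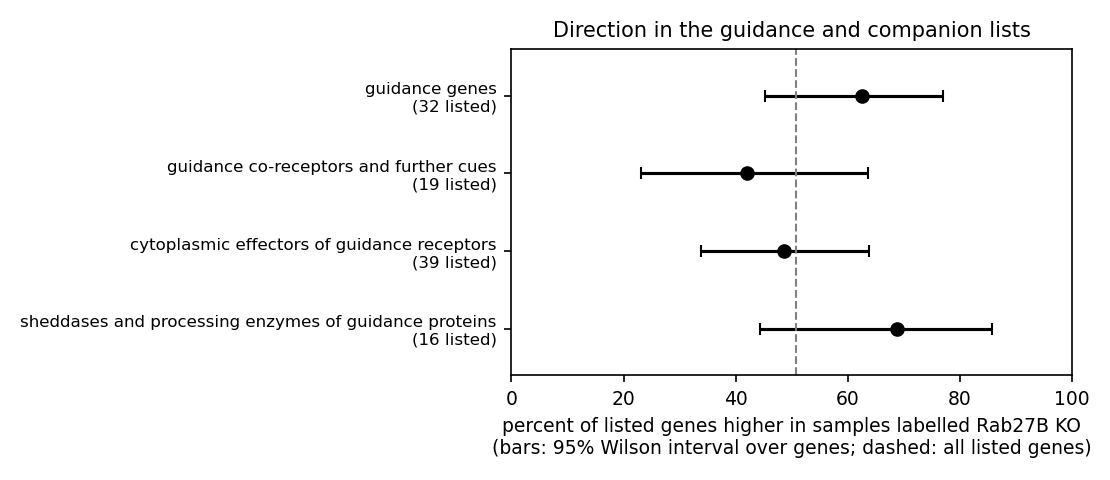
Percent of listed genes that were higher in the samples labelled Rab27B KO (x axis; points with 95% Wilson intervals over genes) for the guidance genes and the 3 companion lists, with the dashed line at 50.7% for all listed genes. The interval of the guidance genes, 45.3 to 77.1%, spans the dashed line.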

How the data were processed

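RNA of 6 HCT116 cultures, 3 wild type and 3 labelled Rab27B KO by their titles, was compared. The submitters' processing notes name HISAT, Bowtie2 and GRCh38. What each was used for, and the counting, annotation, scaling and test, are not stated there. Per the file headers, the deposited tables hold a log2 fold change (Rab27B KO over wild type) and a q-value. The deposited ratio in the table of higher genes was the antilog of its log2 value within a relative 4.53e-10. Fold changes of lower genes were computed from the log2 value. The design allowed for a test on samples; since none had values, the authors' q-values at 0.05 stand with no test added, and depth is unknown. The submitters call the 3 samples of a genotype biological replicates.

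Members were found by symbol, and all 32 symbols equalled the RefSeq symbol of their gene ID. Of 7681 gene IDs 7656 matched RefSeq (GRCh38.p14) and 25 did not. Members and lists were chosen with earlier results of these data known. Named in full were members with an absolute log2 change of at least 1 or among the 10 smallest q-values, and others by class with their log2 value. From 3 companion lists up to 4 genes with the smallest q-value were named, and 1 further list is not reported here. Any other gene is marked as chosen after its value was seen. Counting was run on simulated tables whose members the same symbol rule had picked, and 100 of 100 were recovered. That outcome followed from how the tables were built and does not bear on the choice of members. Wilson intervals cover counting error over genes only. Python 3.11.15, pandas 2.3.3, scipy 1.17.1 and GENCODE release 29 were used. Alternatives tried were stricter q-values of 0.01 and 0.001, an absolute log2 change of at least 1, RefSeq symbols, protein-coding genes only, and leaving out chromosomes 4, 7, 13 and 15, large changes or class 3 semaphorins.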

Additional observations from a re-analysis of the deposited data

How the results depend on the processing

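Of 44 values recomputed under 8 alternatives, 2 of them chosen after seeing the data, 39 stayed within the tolerance set for them and 5 did not. The values for the class 3 semaphorins among the 44 were not planned either. The tolerance was 1.5-fold for counts and a 95% binomial interval over genes for the share higher and the median. The alternatives by RefSeq symbol and by protein-coding genes kept the same 32 genes, so their values could not move. Leaving out the class 3 semaphorins, all of them higher, could not change the 12 lower genes. The median stayed above 0 throughout. At an absolute log2 fold change of at least 1 the listed genes fell to 9, with 6 higher and 3 lower and a median of 1.08, beside -1.01 over all genes of that size. Without chromosomes 4, 7, 13 and 15, the higher class 3 semaphorins went from 6 to 3, since the others lie on chromosome 7. In that setting 60.9% of the listed guidance genes were higher, beside 55.4% of all listed genes. With all chromosomes these shares were 62.5% and 50.7%, so they lay closer together without the 4 chromosomes. Without the class 3 semaphorins, 14 genes were higher and 12 lower, a share of 53.8%, and the median went from 0.34 to 0.20, within its interval. No paired analysis was possible because the tables hold no values per sample, and leaving out replicates was not run for the same reason. The reads behind each fold change are unknown.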

Other observations

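Markers of the cell line's tissue moved in both directions. Beside each marker list, 37.9% of all RefSeq protein-coding genes were listed, and 50.7% of all listed genes were higher. Of 12 colon epithelium markers 7 were listed. KRT8, KRT18, KRT19 and KRT20 were higher, KRT20 by 4.23-fold, and EPCAM and CDH1 were 2.23-fold and 2.22-fold lower per the authors' deposited table. CDX2, a gut transcription factor, was 1.68-fold lower per the authors' deposited table, and VIL1, CDH17, LGALS4, GPA33 and CDX1 were in neither table. Of 12 neuronal markers, relevant because many guidance genes are best known from neurons, 3 were listed. SYP rose 3.33-fold and TUBB3 1.64-fold, and MAP2 was 1.19-fold lower per the authors' deposited table. Of 10 fibroblast and 10 leukocyte markers 2 each were listed, and the other 8 of each were in neither table. Among the former COL3A1 rose 3.41-fold and COL1A1 was 1.32-fold lower per the authors' deposited table. Among the latter CD68 rose 3.51-fold and LYZ 2.53-fold per the authors' deposited table. All samples were labelled as cultures of the HCT116 line, with no other cell type named. These marker values are thus those of cultures of that line, and their relation to the guidance gene values was not tested.

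The guidance transcripts were long. The longest protein-coding transcript in GENCODE release 29 had a median of 4473 nt for the 20 higher and 5128.5 nt for the 12 lower guidance genes. Over all listed genes with a transcript the medians were 2809 nt for 3869 higher and 4287 nt for 3741 lower genes. The median GC content was 60.2% for the 32 guidance transcripts and 50.4% for all 7610. Within class 3 semaphorins it ran from 34.9% in SEMA3D to 64.8% in SEMA3B, both of which were higher.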
